A study of Mus musculus with 5 samples.

Results

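Accessible chromatin regions that lie deep inside long genes were described in the anterior forelimb bud of the mouse embryo. The peak lists of all 5 libraries were merged on chromosomes 1 to 19, and a region was taken if it had a peak in both control libraries, lay wholly inside the body of a protein-coding gene of at least 200 kb, and had its strongest summit 5 to 100 kb from the nearest end of any protein-coding gene. These conditions held for 2998 of the 44386 regions that had a peak in both controls. They lay in 743 host genes, out of 944 protein-coding genes of at least 200 kb. Exon positions were not used here, so a region inside a gene is called internal rather than intronic, although most sequence of genes this long is intron.

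Accessibility was measured by ATAC-seq, a method based on a transposase that inserts sequencing adapters into open chromatin, at stage E11.5 (40 to 48 somites). Each library came from 50K cells of the anterior forelimb pair of 1 genotyped embryo. The 2 controls were Prx+/+;Smarcc1c/c, so they carried both conditional Smarcc1 alleles without Cre. The 3 mutants were PrxCre/+;Smarcc1c/c, with the same conditional alleles and the Prx-Cre transgene, which is active in limb mesenchyme and leaves ectoderm, vessels, blood, nerve and muscle precursors of the bud with an intact gene. The series asks whether the BAF complex is needed for repression by the GLI transcription factors of Hedgehog signalling.

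BAF155, the product of Smarcc1, belongs to the core of the BAF (SWI/SNF) remodelling complex, which uses ATP to move or evict nucleosomes and is known to keep enhancers open. Long genes of the embryo, many of them regulators, adhesion molecules and neuronal genes, hold enhancers in their introns. They also hold alternative promoters from which shorter transcripts start. Enhancers tend to need remodelling to stay open, whereas promoters rich in CG dinucleotides (CpG islands) tend to be open in most cell types.

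Some internal regions held an annotated start, and a few of these starts are printed to show both CG-rich and CG-poor ones. Of the 2998 regions, 119 held a transcript start annotated by RefSeq, 88 of them a start of the host gene itself. For these the 250 bases before the start, in RefSeq's GRCm38.p6 coordinates (the same as mm10), are given 5′ to 3′ on the strand of the gene, with CG dinucleotides in capitals. They are the strongest internal start of a host gene that was open in every library, in Hdac4 (histone deacetylase 4), the 3 strongest that had no peak in any mutant, in Limch1, Ptprg and Plch1, and, after each of these 3, the internal host start nearest to it in control strength that was open in every mutant, in Dock9, Rap1gap2 and Tcf12.
Hdac4: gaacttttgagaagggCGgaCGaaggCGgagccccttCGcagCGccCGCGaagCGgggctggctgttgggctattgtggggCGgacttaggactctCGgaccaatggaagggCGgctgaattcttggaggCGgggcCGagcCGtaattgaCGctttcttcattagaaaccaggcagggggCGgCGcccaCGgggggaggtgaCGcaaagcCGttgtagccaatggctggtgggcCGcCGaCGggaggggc
Limch1: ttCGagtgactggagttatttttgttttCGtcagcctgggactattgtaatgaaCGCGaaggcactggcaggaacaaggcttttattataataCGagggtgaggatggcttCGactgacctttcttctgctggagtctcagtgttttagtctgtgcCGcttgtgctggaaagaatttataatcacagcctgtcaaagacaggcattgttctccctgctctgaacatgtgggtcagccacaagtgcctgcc
Dock9: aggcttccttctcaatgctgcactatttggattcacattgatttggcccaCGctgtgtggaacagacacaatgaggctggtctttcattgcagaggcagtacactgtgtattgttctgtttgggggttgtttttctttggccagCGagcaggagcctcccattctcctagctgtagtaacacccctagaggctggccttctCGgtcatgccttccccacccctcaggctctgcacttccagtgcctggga
Ptprg: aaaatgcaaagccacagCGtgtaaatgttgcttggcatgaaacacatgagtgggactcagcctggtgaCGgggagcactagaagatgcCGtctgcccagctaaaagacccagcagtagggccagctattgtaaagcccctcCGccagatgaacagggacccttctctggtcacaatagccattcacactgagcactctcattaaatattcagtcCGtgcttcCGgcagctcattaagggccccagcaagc
Rap1gap2: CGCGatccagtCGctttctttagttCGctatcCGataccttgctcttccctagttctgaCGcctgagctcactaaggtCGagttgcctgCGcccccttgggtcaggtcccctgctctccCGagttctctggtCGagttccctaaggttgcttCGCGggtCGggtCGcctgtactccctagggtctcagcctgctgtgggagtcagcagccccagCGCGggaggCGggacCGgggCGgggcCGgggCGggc
Plch1: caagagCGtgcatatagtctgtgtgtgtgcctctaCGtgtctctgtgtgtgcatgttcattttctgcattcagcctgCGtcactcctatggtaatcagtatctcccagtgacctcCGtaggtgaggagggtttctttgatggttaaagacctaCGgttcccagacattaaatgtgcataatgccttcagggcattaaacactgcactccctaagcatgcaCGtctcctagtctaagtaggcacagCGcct
Tcf12: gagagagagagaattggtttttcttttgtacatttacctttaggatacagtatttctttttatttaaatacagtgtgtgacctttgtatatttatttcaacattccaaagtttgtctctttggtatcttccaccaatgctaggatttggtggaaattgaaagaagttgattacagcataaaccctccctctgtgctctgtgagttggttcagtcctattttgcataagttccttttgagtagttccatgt

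The Hdac4 sequence (chr1:92180342-92180591, minus strand) holds 23 CG dinucleotides. Its region had a fold over background of 17.2 and 14.7 in controls 1 and 2, and of 11.7, 14.0 and 11.4 in mutants 1, 2 and 3. This fold is the authors' own value for a peak within its list and is not scaled between lists. The Limch1 start (chr5:66968178-66968427, plus strand), in a gene for an actin-associated protein, has 7 CG dinucleotides. Its folds were 5.37 and 5.66 in the controls, with no peak in any mutant. Dock9, an activator of the GTPase CDC42, had a start of like strength (chr14:121698418-121698667, minus strand) with 3 CG dinucleotides. It was open in every library, with folds of 5.20 and 6.06 in the controls and 4.63, 3.78 and 2.86 in mutants 1, 2 and 3. A low CG number thus occurred at starts open in every mutant and at starts open in none.

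Ptprg encodes a receptor tyrosine phosphatase. Its start (chr14:12189693-12189942, plus strand) has 6 CG dinucleotides and folds of 3.99 and 5.39 in the controls alone. Rap1gap2, which encodes an activator of the GTPase activity of RAP1, is its partner in strength (chr11:74522802-74523051, minus strand), with 21 CG dinucleotides. The folds there were 4.68 and 4.18 in the controls and 3.24, 4.76 and 4.04 in mutants 1, 2 and 3. Plch1, a phospholipase C gene (chr3:63851286-63851535, minus strand), has 7 CG dinucleotides and folds of 5.20 and 3.64 in the controls alone. Tcf12, which encodes an E protein that pairs with TWIST1 (chr9:71896097-71896346, minus strand), has 0 CG dinucleotides in the window and was open throughout, at 4.68 and 4.04 in the controls and 3.70, 4.27 and 4.04 in mutants 1, 2 and 3.

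The lists differed in length. Both control lists were longer (68009 and 59252 peaks) than any mutant list (35988, 42185 and 26581), and the read depth behind them is unknown. The lowest fold in a list was 2.43 and 2.29 for controls 1 and 2, and for the mutants 2.47, 2.46 and 2.52, so a region without a peak may still be open below that level. Limb mesenchyme markers had a peak within 1 kb of a gene end at 9 and 9 of 9 genes in the controls and at 9, 8 and 7 in the mutants, and their summed fold was 65.0 and 62.3 against 68.7, 73.9 and 49.5. Prrx1, the gene whose regulatory sequence drives the Prx-Cre transgene, had folds of 9.54 and 9.30 in the controls and 22.7, 22.7 and 18.5 in mutants 1, 2 and 3. Without Prrx1 the summed fold of the other 8 markers was 55.5 and 53.0 against 46.0, 51.2 and 31.0. For surface ectoderm these counts were 5 and 6 of 8 genes in the controls and 5, 6 and 4 in mutants 1, 2 and 3, with summed folds of 23.8 and 19.5 against 20.1, 25.8 and 14.6. For endothelium and blood they were 6 and 5 of 11 against 5, 5 and 5, with summed folds of 35.2 and 26.1 against 23.5, 25.8 and 21.4. For neural crest, glia and muscle precursors they were 9 and 8 of 9 against 7, 9 and 5, with summed folds of 55.7 and 53.6 against 43.4, 54.4 and 33.3. Folds are not scaled between lists, and a gene without a peak added nothing to a sum. The sums therefore do not compare signal or cell numbers between libraries. The part of these cell types in the results was not tested. Smarcc1 itself had a gene-end peak in all 5 libraries, which does not check the deletion.

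The first question was how much of the internal accessibility of long genes was still called in the mutants. Peaks were present at 1167, 1123 and 712 of the 2998 regions in mutants 1, 2 and 3, so 61.1%, 62.5% and 76.3% had none. That was a mean of 66.6% ± 8.37 (SD, n = 3 mutants). No mutant had a peak at 1539 regions (51.3%), 1 mutant had one at 475, 2 mutants at 425, and all 3 at 559 (18.6%). Among all 44386 regions of both controls, 30.6% had no peak in any mutant and 43.1% had one in all 3. For the 32220 of them at least 1 kb from every gene end, here called distal, these shares were 40.6% and 28%. Since the regions were chosen by peaks in both controls, some absence follows from the choice, and each comparison below uses regions chosen in the same way. Whether fewer cells were open at a region or each cell was less open cannot be told apart in these bulk samples.

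Internal regions of long genes lacked a mutant peak more often than distal regions elsewhere, in every mutant. Intergenic regions 5 to 100 kb from a gene end (n = 8719) had no peak at a mean of 56.0% ± 7.98. Regions inside genes under 200 kb, in the same 5 to 100 kb window (n = 7750), had none at 54.9% ± 9.99. Distance within that window was not matched in any comparison below, so its part in the differences was not tested. Strength in the controls was alike, with a median percentile of the fold within the control lists of 52.9 for the long genes, 53.7 for the intergenic regions and 53.1 for the shorter genes. After matching by decile of that percentile, absence in the long genes exceeded that of intergenic regions by 10.2, 10.3 and 10.9 percentage points in mutants 1, 2 and 3 (mean 10.4 ± 0.390). Against regions of shorter genes the excess was 10.4, 14.1 and 8.88 points (mean 11.1 ± 2.67). Against all other distal regions (n = 29222) it was 9.83, 11.6 and 9.74 points (mean 10.4 ± 1.04). Every difference was positive in 3 of 3 mutants, and each exact two-sided sign-flip permutation test gave p = 0.25, the smallest that 3 mutants allow.

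**Figure D1:**
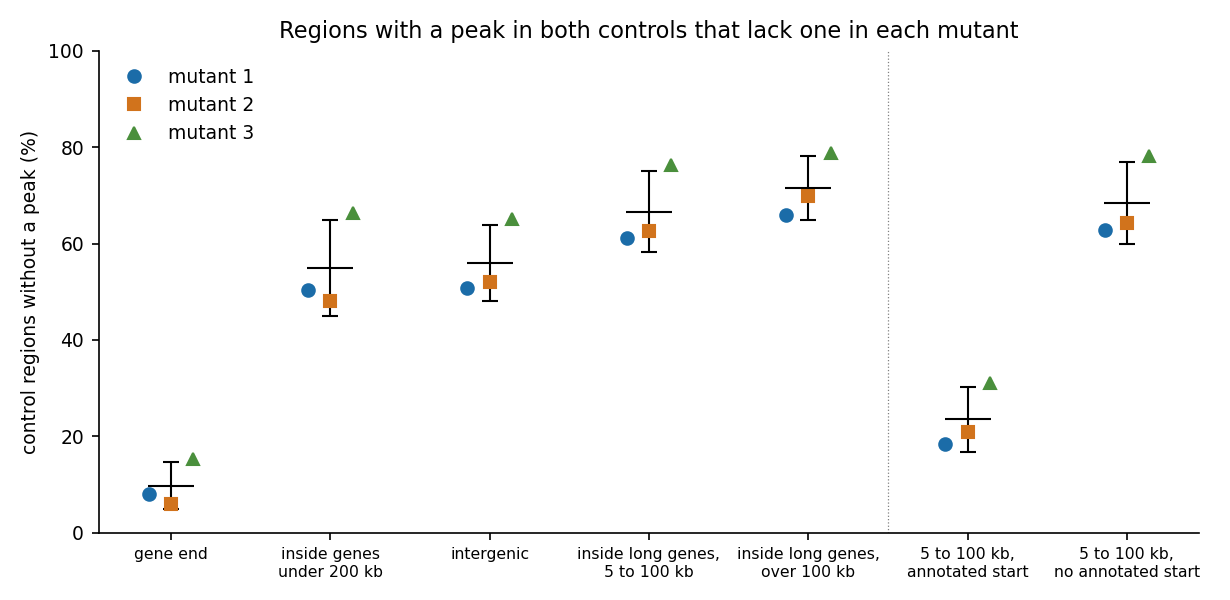
Percentage of regions with a peak in both controls that had none in each mutant (points, 1 per mutant; bar and whiskers, mean ± SD of 3 mutants), by position. Regions inside long genes at 5 to 100 kb sit at a mean of 66.6%, above intergenic regions (56.0%) and regions of shorter genes (54.9%) and below the deeper regions of long genes (71.5%); to the right of the dotted line the same regions are divided by whether they hold an annotated start (23.5% against 68.4%).

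The excess held at most strengths. In the weakest decile of control strength, 296 of 358 internal regions (82.7%) had no peak in any mutant, against 68.9% of other distal regions. In the fifth decile 190 of 379 (50.1%) had none, against 38.2%, and in the seventh 116 of 327 (35.5%), against 21.8%. In the share absent from all 3 mutants the gap closed towards the top. In the eighth decile 38 of 223 (17.0%) had none, against 11.6%, in the ninth 1 of 129 against 2.34%, and in the tenth 0 of 57 against 0.329%. The mean share without a peak per mutant kept its gap longer, at 34.1% ± 13.7 against 20.8% ± 6.62 in the eighth decile and 12.1% ± 10.1 against 6.14% ± 2.53 in the ninth. In the ninth, mutant 1 was lower (2.33% against 3.82%) and mutants 2 and 3 were higher. The single region of the ninth decile without a mutant peak lay in Dpf3, which itself encodes a subunit found in BAF complexes. Its region (chr12:83481399-83481891), 6.05 kb inside the start of the gene, had folds of 8.15 and 7.55 in the controls.

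**Figure D2:**
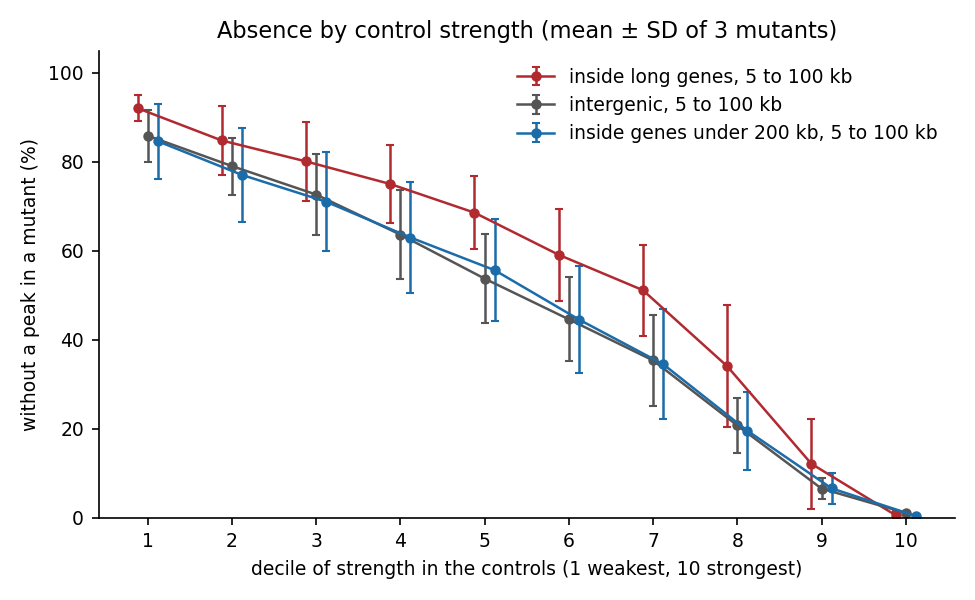
Percentage of control regions without a peak in a mutant (mean ± SD of 3 mutants) by decile of strength in the controls, for regions inside long genes, intergenic regions and regions inside shorter genes, all 5 to 100 kb from a gene end. The curve of the long genes lies above both others from the first to the ninth decile, and all 3 approach 0 in the tenth.

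The start of a host gene and its interior differed within the same genes. A start could be placed for 568 host genes, and 426 of these had a region of both controls within 1 kb of it. Mutants 1, 2 and 3 lacked a peak at 6.10%, 3.76% and 10.8% of these starts (mean 6.89% ± 3.59). In the same genes they lacked one at 61.7%, 63.1% and 77.3% of the 1779 internal regions (mean 67.4% ± 8.66). The difference was 60.5 ± 5.56 points, positive in 3 of 3 mutants (exact sign-flip permutation p = 0.25). Of the 426 starts, 369 had a peak in every mutant and 10 in none. These values were not matched for strength, and gene-end regions had a median control percentile of 86.3.

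Every list was also classed on its own peaks, without choosing regions by the controls. Internal regions of long genes made up 7.68% and 6.76% of the control lists (mean 7.22% ± 0.645, n = 2) and 4.42%, 4.27% and 3.36% of the mutant lists (mean 4.02% ± 0.577, n = 3). The groups did not overlap, and the difference of -3.20 points had the smallest p that 2 against 3 libraries allow (exact two-sided permutation test, p = 0.2). As a share of distal peaks alone they made up 9.74% and 8.87% in the controls and 6.97%, 6.39% and 6.11% in mutants 1, 2 and 3 (p = 0.2, same exact test). In numbers these were 5221 and 4008 peaks against 1591, 1802 and 892. The fall in list share was not particular to these regions. For intergenic regions the mean share was 19.9% in controls and 15.1% in mutants (-4.78 points, exact permutation p = 0.2). For shorter genes it was 19.2% and 15.7% (-3.50, exact permutation p = 0.4). For deeper regions of long genes it was 5.32% and 2.46% (-2.86, exact permutation p = 0.2). The share of gene ends was 15.8 points higher in mutants, at 38.2% against 22.5% (exact permutation p = 0.2). Control shares differed widely between these classes, so the falls in points do not rank them.

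Peaks of a single control could be looked for in the other control and in the mutants on equal terms. Control 1 had 5029 regions of this position. Control 2 had a peak at 59.6% of them, and mutants 1, 2 and 3 at 24.8%, 24.7% and 14.9%. Control 2 had 3817, of which control 1 held 78.5% and the mutants 31.8%, 30.8% and 19.3%. The second control thus shared more of them than any mutant did. The gap between the other control and the mean of the mutants was 38.2 and 51.3 points, against 41.8 and 56.0 for deeper regions of long genes, 34.7 and 41.4 for intergenic regions, 30.8 and 38.4 for shorter genes, and 7.47 and 8.05 at gene ends. These gaps include the difference in list length.

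The 559 regions open in all 5 libraries were compared by rank, because folds cannot be compared between lists. Within each list the median percentile came to 80.0 and 75.7 in the controls and 62.6, 63.3 and 47.3 in mutants 1, 2 and 3 (difference -20.1, exact two-sided permutation p = 0.2). Regions elsewhere fell in the same way, by -17.6 for intergenic regions, -18.4 for shorter genes and -8.88 at gene ends (exact permutation p = 0.2 for each). Shorter lists hold fewer weak peaks, which lowers this rank. Ranked only among regions open in every library, a setting added after the data were seen, the medians were 36.0 and 34.4 against 33.0, 25.8 and 32.3, a difference of -4.88 (exact permutation p = 0.2). The same measure gave -2.00 for shorter genes (p = 0.2), 0.308 for intergenic regions (p = 1) and 0.882 at gene ends (p = 0.2), all by the exact permutation test. Several medians were tied between classes. Intergenic regions had the same medians as internal ones in mutants 2 and 3, and shorter genes in mutants 1 and 3. In the controls the intergenic medians were lower, at 29.3 and 28.9, so the contrast with intergenic regions rests mostly on the controls.

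Where a region lay inside its gene made a modest difference. The regions were a median of 50.1 kb from the nearest gene end and 684 bp wide (205 to 8867 bp). They occurred at 16.1 per Mb of eligible sequence, between intergenic sequence (14.0 per Mb) and shorter genes (18.2 per Mb). Of those 5 to 10 kb from a gene end, 70 of 168 (41.7%) had no peak in any mutant. The share was 46.7% at 10 to 25 kb, 53.5% at 25 to 50 kb, 52.0% at 50 to 75 kb and 53.6% at 75 to 100 kb. Regions of long genes more than 100 kb from any gene end (n = 2251) lacked a mutant peak still more often, at a mean of 71.5% ± 6.56. At like strength, absence within 100 kb minus absence deeper was -4.74, -7.14 and -2.29 points in the 3 mutants (exact sign-flip permutation p = 0.25).

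Regions just inside and outside the limits can be set side by side. In genes of 200 to 250 kb, 50.9% had no peak in any mutant, and in genes of 150 to 200 kb 49.7%. At 5 to 6 kb from a gene end the share was 38.7% (n = 31), and at 4 to 5 kb 29.5% (n = 44). At 90 to 100 kb it was 53.7% (n = 309), and in the 10 kb beyond that limit 62.0% (n = 255). No step stood at the length limit, whereas the share was higher on the farther side of both distance limits. At 5 kb this rests on few regions, 12 of 31 against 13 of 44. None of these shares was tested or matched for strength.

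Host gene length made little difference up to 1 Mb. The share without a peak in any mutant was 51.8% in genes of 200 to 300 kb, 48.5% at 300 to 500 kb, 52.0% at 500 kb to 1 Mb and 66.4% (87 of 131) above. Along genes of known strand, 1023 of 2359 regions (43.4%) were nearer the start than the end, where 49.7% of the eligible sequence lies. The absent share was 50.1% on that side and 51.1% on the other.

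Regions that had company were kept more often. Where another internal region lay within 10 kb, 609 of 1374 (44.3%) had no peak in any mutant, and where none did, 930 of 1624 (57.3%). Control strength was nearly alike, with median percentiles of 53.2 and 52.6. Host genes with 1 region had an absent share of 56.9%, those with 2 to 4 regions 61.0%, with 5 to 9 regions 51.7%, and with 10 or more 37.7% (275 of 730). These are descriptions over regions, which share libraries and genes, and no test was made of them.

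An annotated start inside the region went with the largest contrast among the internal regions, a feature picked after the data were seen. The 119 regions with a start lacked a peak in 18.5%, 21.0% and 31.1% of cases in mutants 1, 2 and 3 (mean 23.5% ± 6.67). The other 2879 lacked one in 68.4% ± 8.44. With a start, 75 were open in all 3 mutants and 14 in none. Regions with a start were stronger, with a median control percentile of 80.2 against 52.3. At like strength they were lower in absence in every mutant (difference -20.0 ± 2.16 points, exact sign-flip permutation p = 0.25). Shorter genes and intergenic sequence showed the same order, at 14.9% ± 6.69 with a start (n = 693) against 58.8% without, and 29.6% ± 9.64 (n = 388) against 57.2%.

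Among regions without an annotated start, the excess of long genes at like strength was 10.7 ± 0.522 points against intergenic regions and 10.7 ± 2.63 against shorter genes. Both were positive in 3 of 3 mutants (exact sign-flip permutation p = 0.25).

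The CG content before a start followed the number of mutants with a peak. The median was 3 CG dinucleotides (0 to 7) in the 14 windows whose region was open in no mutant, 4.5 where 1 mutant had a peak, 9 where 2 had and 15 in the 75 open in all 3. Over all 32851 promoter windows of the RefSeq table the median was 6. Of the 56 windows with at least 10 CG dinucleotides, 0 lay in a region absent from all mutants and 48 in one open in all 3. With 5 to 9 these were 5 and 16 of 34, and with 0 to 4 they were 9 and 11 of 29. CG-rich starts were also the stronger ones, with a median control percentile of 83.4 against 65.5 in the CG-poorest class. Between percentiles 50 and 90 the counts were 0 absent and 26 fully open of 32 with at least 10 CG dinucleotides, and 5 and 18 of 38 with fewer. Strength still differed there, with median control percentiles of 80.9 and 74.6, so it was not held constant. A GLI motif (GACCACCCA, either strand) occurred in 1 of the 119 windows and in 0.225% of all promoter windows.

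**Figure D3:**
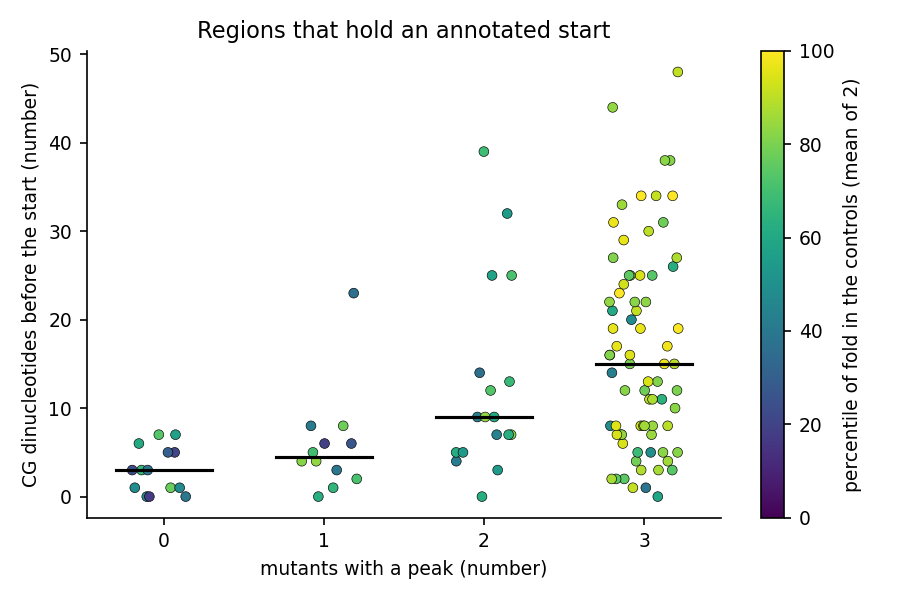
Number of CG dinucleotides in the 250 bases before the annotated start (vertical axis) by number of mutants with a peak (horizontal axis), 1 point per region with a start (n = 119), coloured by control strength; bars are medians of 3, 4.5, 9 and 15. No region with at least 10 CG dinucleotides is in the column of 0 mutants.

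The strongest internal regions were kept in every mutant. First came a region in Cmss1 (chr16:57391341-57391828), with folds of 24.8 and 21.6 in the controls and 20.4, 23.8 and 21.2 in mutants 1, 2 and 3. The second, in the neural adhesion gene Chl1 (chr6:103648982-103649407), had 21.7 and 17.8 against 21.3, 22.3 and 22.5. Neither holds an annotated start, and both are under 500 bp wide. The next 4 hold one: in Stard13 it is the start of the transcript 1700028E10Rik, and in Hdac4, Rps6ka2 (a ribosomal S6 kinase) and Gphn (the scaffold gephyrin) it is a start of the host gene. In Rps6ka2 the folds were 14.7 and 15.5 against 9.41, 13.1 and 11.4. In Gphn they were 15.3 and 14.8 against 11.7, 13.3 and 10.9. The other four of the 10 strongest lay in Mical3, Chd9, Gse1 and Kctd16, without an annotated start in the region.

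The strongest regions absent from all mutants stood lower in the control lists. After Dpf3 came the calcium-activated channel gene Ano2 (chr6:125787167-125787989; folds 7.46 and 7.55), Pitpnc1, a phosphatidylinositol transfer protein gene (chr11:107413090-107413906; 7.11 and 7.82), and Bank1, a B-cell scaffold gene (chr3:136081148-136082064; 6.76 and 8.22). The next were in Prex2, Fhit, Pappa, Phactr3, Ppp3ca and Spidr. Prex2 encodes a RAC exchange factor, Pappa a protease that frees insulin-like growth factors, and Ppp3ca the catalytic subunit of calcineurin. The 10 ranked between the 175th and the 287th of the 2998 by control strength, and none holds an annotated start.

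Host genes differed widely. They held a median of 3 regions, 188 held 1 and 55 held at least 10. Of 422 genes with at least 3, 51 had every region absent from all mutants and 13 had none absent. Gse1, which encodes a subunit of a histone demethylase complex, held the most, 46 regions over 353 kb (chr8:120228501-120581383, plus strand). Of these 27, 35 and 12 had a peak in mutants 1, 2 and 3, 10 had none in any and 12 were open in all. Its strongest region, 47.9 kb inside the start, had folds of 13.9 and 12.8 in the controls and 9.26, 11.3 and 9.59 in mutants 1, 2 and 3. Mutant 3, with the shortest list, held the fewest regions in Gse1.

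Prdm16, a zinc finger regulator of cell fate, held 25 regions, of which 8, 14 and 1 were open in mutants 1, 2 and 3 and 10 in none. Tns1, for the focal adhesion protein tensin 1, held 23, with 12, 15 and 3 open. Trio, a guanine nucleotide exchange factor gene, held 20, with 13, 10 and 7 open. Glis1, a zinc finger gene related to the Gli family, held 19, with 8, 12 and 2 open. Clybl, which encodes a mitochondrial lyase, was kept more evenly, with 13, 12 and 11 of 17 open and 10 open in all 3. Jazf1, Rnf220, Dock9, Gli2, Zmiz1 and Abr complete the 12 genes with the most regions, where Abr is 1 of 7 genes tied at 14 and was taken by name. Among these 6 the number absent from all mutants ran from 2 of 14 in Abr to 9 of 16 in Rnf220.

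**Figure D4:**
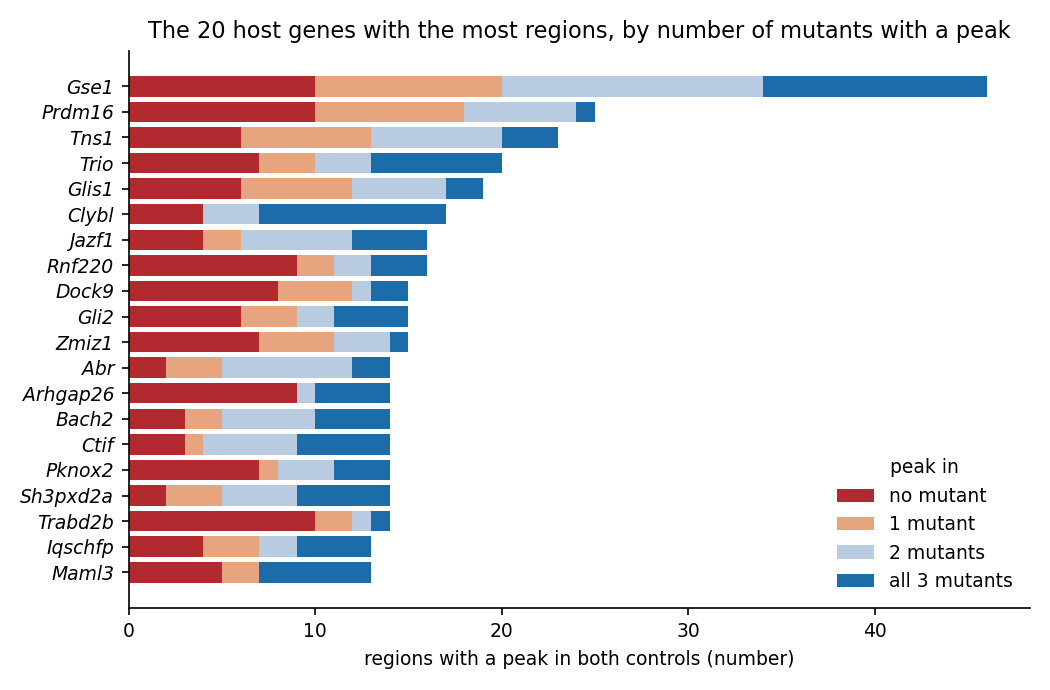
Internal regions (horizontal axis, number) in the 20 host genes with the most (ties by name), divided by the number of mutants with a peak. Gse1 has 46 regions, 10 without any mutant peak; Clybl keeps 10 of 17 in all 3 mutants and Prdm16 1 of 25.

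In some genes no internal region had a mutant peak, and in others nearly all had. Sh3rf1, for a scaffold of JNK signalling with ubiquitin ligase activity, had 9 of 9 absent from all mutants. Its strongest region had folds of 5.38 and 4.31 in the controls (chr8:61404082-61404606). Dock2, which acts in blood cells, had 6 of 6 absent, with folds of 2.56 to 4.33. Aig1, Cpa6 and Med13l had 5 of 5 each, and are the first by name of a tie: in all, 11 host genes with at least 5 regions had every one absent. In Aig1 the control folds ran from 3.64 to 5.55. Dnm3, a dynamin gene with an intron that hosts the antisense transcript Dnm3os, had 11, 11 and 9 of its 12 regions open. All 12 lay more than 400 kb from the start and within 100 kb of the other end.

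Camta1, a calmodulin-binding transcription activator gene, kept 6, 6 and 4 of 6, with folds at the strongest (chr4:151127528-151130273) of 9.02 and 7.01 against 9.10, 7.88 and 6.06. Slc39a11, a zinc transporter gene, kept 5, 3 and 2 of 5, Zfp536, a neural zinc finger gene, 3, 3 and 2 of 5, and Gm37013 2, 4 and 2 of 5. None of these 4 genes had a region absent from all mutants. Control strength was not alike at the 2 ends. The median control percentile ran from 51.8 in Zfp536 to 74.8 in Camta1 among these 4, and was 66.5 in Dnm3. Among Sh3rf1, Dock2, Aig1, Cpa6 and Med13l it ran from 26.5 in Med13l to 60.5 in Aig1. The part of strength in this contrast was not tested.

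Limb patterning and Hedgehog genes came first among the gene lists, because the series is about GLI repression. Their 61 regions in 8 host genes had a median control percentile of 57.2, and 26 (42.6%) had no peak in any mutant, against 51.3% of all internal regions. With peaks of a −log10 q of at least 10 the order turned, at 68.2% against 58.2%. Absence was 47.5%, 60.7% and 75.4% in mutants 1, 2 and 3, against 61.1%, 62.5% and 76.3% of all internal regions. Gli2, which encodes a GLI factor that mainly activates, held 15 (chr1:118834061-119054405, minus strand), of which 7, 8 and 4 had a peak. The 6 regions nearer the start, 5.65 to 99.5 kb inside the gene, all had a peak in at least 1 mutant. Of the 9 nearer the end, 130 to 176 kb inside, 6 had none. The strongest, 71.6 kb inside (chr1:118981469-118983478), had folds of 9.71 and 8.35 in the controls and 4.01, 4.93 and 3.36 in mutants 1, 2 and 3.

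Gli3, for the main GLI repressor of the anterior limb, held 9, with 6, 4 and 1 open in mutants 1, 2 and 3 and 3 open in none. Its strongest (chr13:15543524-15545446) had folds of 8.32 and 7.55 against 3.70 and 3.45 in mutants 1 and 2, with no peak in mutant 3. Fmn1, whose gene body holds limb enhancers of the neighbouring Grem1, held 9, with 5, 4 and 5 open. The strongest of these (chr2:113692623-113693744) had 8.50 and 7.14 against 5.71, 4.27 and 5.72.

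**Figure D5:**
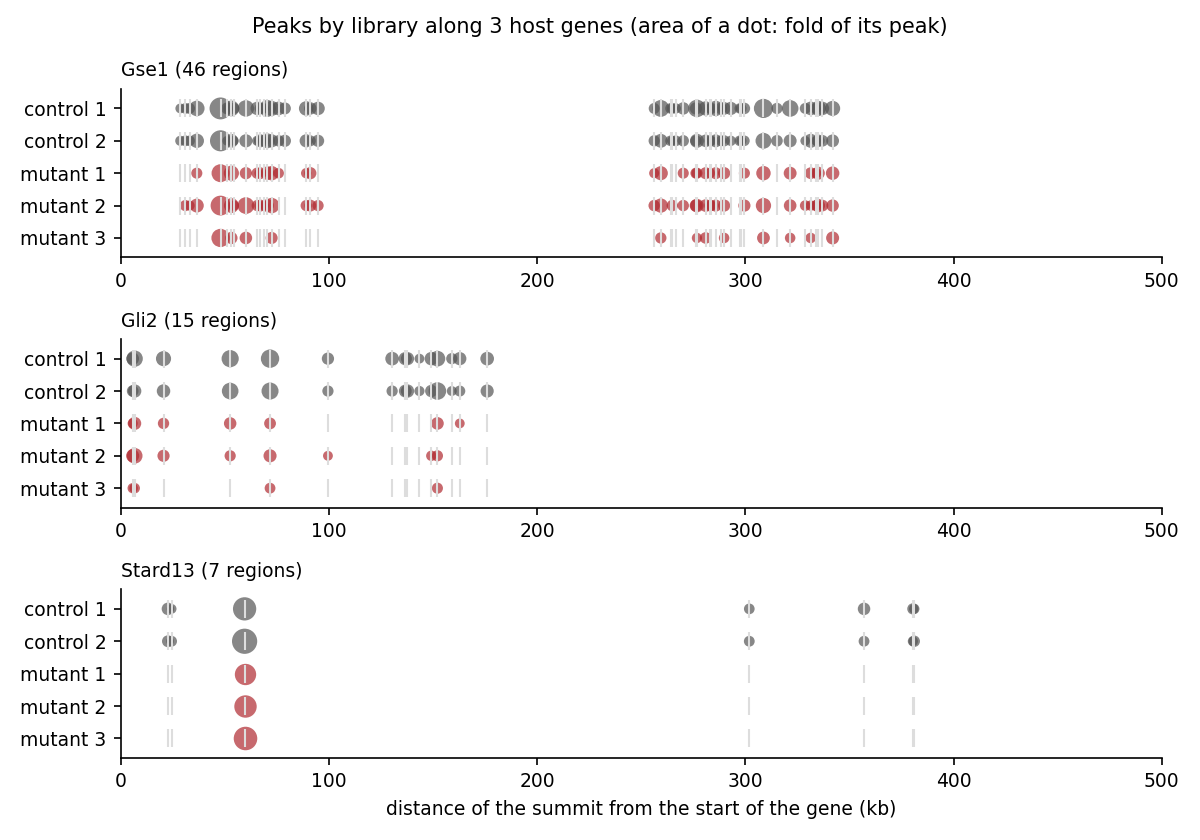
Internal regions of Gse1, Gli2 and Stard13 by distance of the summit from the start of the gene (kb), 1 row per library; each dot is a peak, its area the authors' fold within that list, and grey ticks mark all internal regions. Gli2 has mutant peaks at all 6 regions nearer its start and none at 6 of 9 nearer its end, and Stard13 has them at 1 of 7, the region with an annotated start.

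Stard13 shows the contrast of start and other internal regions within a gene. Its 1 region with an annotated start (chr5:151367790-151369786) had folds of 15.6 and 18.3 in the controls and 13.1, 14.5 and 16.0 in mutants 1, 2 and 3. The other 6, with control folds of 2.77 to 4.51, had no peak in any mutant. They were also much weaker in the controls.

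Broad developmental transcription factors held 133 internal regions in 19 host genes, with 53 (39.8%) absent from all mutants, against 51.3% of all internal regions, and 32 open in all. Counted by host gene the difference was small, with a median absent share of 50% against 53.3% over all host genes. In this list 7 host genes were above 50% and 9 below. Tead1, the DNA-binding partner of YAP, had 9, 9 and 4 of 13 open. Maml3, a Notch co-activator gene, had 7, 7 and 6 of 13, and Nfia, a nuclear factor I gene, 6, 7 and 4 of 12. Chondrogenic and skeletal regulators had 21 of 45 absent (46.7%), near the 51.3% of all. Among them Trps1, a GATA-type repressor gene that acts in the growth plate, had 9, 8 and 8 of 12 open. Its strongest region (chr15:50697653-50698925) had folds of 8.84 and 7.55 against 5.40, 6.90 and 7.23. Runx1 had 5 of 9 absent, Bmpr1b, a BMP receptor gene of cartilage condensations, 2 of 6, Sox6 4 of 6 and Sox5 2 of 5. BMP, TGF-beta and FGF signalling had only 10 regions, 4 of them absent (40%), and 6 of the 10 lay in Bmpr1b, which stands in both lists.

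Extracellular matrix genes had a high absent share. Of their 49 regions in 14 host genes, 39 (79.6%) had no peak in any mutant, against 51.3% of all internal regions, and 2 were open in all 3, and 13 of the 14 genes had more than 50% absent. Over all host genes 372 were above 50% and 276 below. The list does not hold every matrix gene, and the share depends on which were listed. Outside it, Adamts2 and Col19a1 each had 1 of 3 regions absent from all mutants, and Ltbp1 had 0 of 2. Control strength of the 49 listed regions was not low, with a median percentile of 55.6. Absence was 87.8%, 87.8% and 93.9% in mutants 1, 2 and 3. Col23a1, a transmembrane collagen gene, had 6 of 10 absent. Its strongest region (chr11:51538910-51540154) was kept, with folds of 8.50 and 7.41 against 5.86, 5.91 and 5.04.

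Fbn2, for the microfibril protein fibrillin 2, had 4 of 5 absent, Hmcn1 3 of 5 and Adamts6, a secreted metalloprotease gene, 4 of 4. In Adamts6 the strongest region in control 1 (chr13:104351686-104352271) had folds of 6.42 and 4.45. WNT and planar polarity genes had 13 of 15 absent (86.7%), but 9 of the 15 lay in Gpc6 alone, a glypican gene with 8 of 9 absent. Ror1, a WNT5A receptor gene, had 3 of 3 absent. In Gpc6 the only mutant peak was in mutant 2, at a region with control folds of 5.90 and 3.23 and a fold there of 3.28.

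Adhesion, guidance and neuronal genes ranged from near the 51.3% of all internal regions upwards. Cadherins and other adhesion genes had 21 of 31 absent (67.7%), with Cdh4 at 6 of 11, Ctnna2 at 6 of 7, Itga9 at 3 of 6 and Ncam1 at 3 of 3. Axon guidance genes had 37 of 71 absent (52.1%), near the share of all internal regions. Of their 16 host genes, 8 were above 50% and 4 below. The 4 below were Epha3 at 3 of 11, Unc5c at 5 of 11, Robo1 at 2 of 8 and Efna5 at 3 of 8. Synaptic and neuronal genes had 61 of 101 absent (60.4%), with Astn2 at 7 of 9, Tenm3 at 4 of 7, Cacna2d3 at 4 of 6 and Cntnap2 at 4 of 5.

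Genes of cell types in which Prx-Cre is not active were read in the same way. Endothelial and blood genes had 29 of 45 absent (64.4%), against 51.3% of all internal regions, with a median control percentile of 44.1, Ptprm at 5 of 8 and Mecom at 2 of 8. Neural crest, glia and muscle precursor genes had 8 of 11 absent (72.7%), at a median percentile of 42.8. Of these 11 regions, 5 lay in Sox5, given above with the skeletal regulators. Runx1, listed with those regulators as well, held 9 of the 45 endothelial and blood regions. The lists thus share genes and are not separate readouts. Surface ectoderm genes had 1 region, which was absent. These regions were weaker in the controls than internal regions as a whole (52.9), and several of the genes, Mecom and Runx1 among them, are also expressed in limb mesenchyme or cartilage. The gene-end peaks of the same cell types are given above, and their part in these counts was not tested.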

How the data were processed

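Chromatin accessibility was measured by ATAC-seq in 2 control and 3 mutant libraries, grouped by the genotype in the labels. Per the submitters' processing notes, the tools were bcl2fastq 2.20.0, Bowtie2 2.3.5 and MACS2, and the build was mm10. Not given in the sources used here are the MACS2 version and options, duplicate removal and the shift of reads to the transposase cut. A missing shift would move borders by a few bases, and duplicates would raise the pileup. The authors deposited 1 narrowPeak list per library, not pooled. In its layout, the deposited columns hold positions and summit, a display score (not used), a fold (ratio) over background, and −log10 p-value and −log10 q-value. The authors' fold is not scaled between libraries, so it was used by rank within a list. Depth is unknown, and no counting interval was formed.

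Peaks sharing at least 1 bp were merged on chromosomes 1 to 19, and gene bodies came from the RefSeq table (GRCm38.p6, 20661 protein-coding genes). A region in several long genes (30 cases) went to the longest. Absence was compared at like strength by weighting 10 deciles of the mean control percentile of the fold to the internal regions. Tests were exact permutations over libraries (smallest p 0.2) or sign flips over the mutants (smallest p 0.25), so none can pass 0.05. The library, 1 embryo each, is the unit. Starts and their strand came from RefSeq's promoter table (300 bases per start, incomplete). Python 3.11.15, numpy 2.4.6, pandas 2.3.3, scipy 1.17.1 and matplotlib 3.10.9 were used, and the matched difference was tested on simulated data.

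The regions, the 13 gene lists and the tests were chosen with earlier results of these data known, so no list is independent evidence. Named genes are the 12 hosts with the most regions, the hosts of the 10 strongest regions open in all mutants and of the 10 strongest open in none, the 5 hosts with the highest and the 5 with the lowest absent share among those with at least 5 regions, and up to 4 per list with at least 3 regions. Some of these genes and 1 of the lists are not reported here. Ties were cut by name. Limch1, Ptprg, Plch1, Rap1gap2 and Tcf12 were named for their starts after their values were seen. Alternatives were peak thresholds, lists of equal length, overlap, gene length, distance, strata and leaving out each library.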

Additional observations from a re-analysis of the deposited data

How the results depend on the processing

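No paired analysis was possible because replicates are numbered by accession order alone, which ties no control to a mutant. None of the differences between positions, lists or ranks given next changed direction under any alternative run. The excess of absence at like strength ran from 8.06 to 14.9 points against other distal regions, from 8.10 to 15.5 against intergenic regions and from 8.25 to 14.8 against shorter genes, lowest without control 1 and highest with lists of equal length. The difference in list share ran from -6.03 to -0.975 points, that in rank from -24.3 to -4.57, and that between regions with and without an annotated start from -44.9 (without matching for strength) to -17.5. The number of regions was 1957 with peaks of a −log10 q of at least 5, 858 with at least 10, 1046 with every list shortened to 26581 peaks, 6069 for genes of at least 100 kb and 858 for genes of at least 400 kb. Leaving out each library in turn gave 2999 to 5126 regions, the most without control 2. The share absent from all mutants, 51.3%, was 37.8% with lists of equal length and 52.9% to 67.9% with each library left out, highest without control 2 (60.2% without control 1); a single control then chooses the regions. With each host gene counted once it was 56.2%, and without regions that hold an annotated start 53.0%, both added after the data were seen. The gap between the other control and the mutants, a mean of 44.7 points, was 32.5 with lists of equal length, and it has no value without a control. Of 767 values for single genes and lists, 638 stayed within the interval of the reported share, and of the 129 others 76 were higher and 53 lower. This interval is binomial (Wilson) over the regions of the gene or list, which share libraries and are not replicates. It is wide for genes with few regions, so staying inside it says little about stability. With lists of equal length the limb patterning list stood at 31.8%, broad transcription factors at 24.5% and extracellular matrix at 70.6%. With a −log10 q of at least 10 these were 68.2% for the limb patterning list and 86.7% for extracellular matrix, against 58.2% of all internal regions, so the limb patterning list changed sides. The lists' length and lowest fold limit what an absent peak shows.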

Other observations

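A few internal regions overlapped a miRNA hairpin. They lay at Mir153 in Ptprn2, at Mir1904 in Pde4d and at Mir7687 in Gse1, and all 3 had a peak in every mutant. Their control folds were 6.76 and 5.93 at Mir153, 8.67 and 6.60 at Mir1904, and 10.6 and 7.28 at Mir7687. The Mir7687 region, the widest of all internal regions at 8867 bp, also holds an annotated start of Gse1. A peak anywhere in a merged region was counted, so it need not lie at the hairpin. Mir153 is a neuronal miRNA whose host Ptprn2 encodes a protein of secretory granules. Its region spans chr12:117250128-117252538.

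Over all lists, 6308 regions had this position, of which 2998 had a peak in both controls, 2850 in 1 control alone and 460 in none. Over all positions, 44386 of 85522 merged regions had a peak in both controls. A single region had a peak in all 3 mutants and in no control. It lay in Fbn2 (chr18:58033291-58033725), with folds of 3.55, 3.28 and 3.36 in mutants 1, 2 and 3, close to the lowest folds of these lists. In the same gene 4 of the 5 regions of both controls had no peak in any mutant. Regions open in the mutants alone were not set against other positions, and the mutant lists were shorter. Their small number is therefore not read as particular to long genes.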
